A study of Mus musculus with 15 samples.

Results

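The membrane skeleton of the red cell was examined through 8 genes, Sptb, Ank1, Slc4a1, Epb41, Epb42, Dmtn, Add2 and Tmod1, out of 55487 mouse genes in the count tables. The 8 were taken by name from a list drawn up with earlier results of these data known, so their counts beside those of all genes are a description. Each was found as 1 row in both tables and passed the filter on low counts in every comparison. They were measured by RNA sequencing in erythroid progenitors from the liver of mouse fetuses at E12.5 (strain 129S6/SvEvTac). The 15 libraries fall into 5 groups of 3. Group 1 of mice has wildtype (WT) and mutant (M) libraries made from polyA RNA, and group 2 has WT, M and M-lowyield libraries made from total RNA. All mutants carry a mutation of Rpl5, a gene for a protein of the ribosome's large subunit. The deposited sample sheet names the genotype of both mutant classes of group 2 as Rpl5plusSkax23Jus, while that of group 1 says M and gives no allele. The sources used here define neither low-yield nor how the progenitors were isolated, and they do not say whether a library comes from 1 fetus or several. The p-values below therefore measure the spread between these libraries, which may be technical.

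Beneath the membrane of a red cell lies a net of spectrin tetramers, whose ends meet on short actin filaments. The net is tied to the membrane at ankyrin complexes, which hold the anion exchanger band 3 and protein 4.2, and at junctional complexes, where protein 4.1, adducin, dematin and tropomodulin bind actin. Inherited defects of several of these proteins cause hereditary spherocytosis or elliptocytosis, in which red cells lose their shape and break down early. Erythroblasts of the fetal liver begin to make the net while they are still dividing, and more of it is laid down as they mature.

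The libraries held 24954324 to 58513669 counts. Rpl5, the mutated gene, was lower in every mutant library than in every wildtype library of its group: 656, 668 and 744 CPM in group 1 wildtype against 520.5, 561 and 570.4 in the mutant, and 303 to 374 CPM in group 2 wildtype against 219 to 278 in the 6 mutant libraries. CPM (counts scaled to a common library total) were normalised by the trimmed mean of M values (TMM). The 12 erythroid markers were all detected in all 15 libraries. Of the markers of other cells, the macrophage genes Cd5l and Timd4 and the T cell gene Cd3e were at 0 in all 15, while others were detected, such as the macrophage gene Csf1r in all 15 (up to 7.13 CPM) and granulocyte markers that summed to as much as 1099 CPM in a group 1 mutant library. One library stands apart in what follows. In group 2 wildtype replicate 1, haemoglobin genes took 0.494% of the counts, against 0.876% and 1.13% in its fellow replicates, and several members were lowest there among the wildtype libraries. Where a member's call changed without it, both values are given. The 8 members together took 0.248% to 0.300% of the counts in group 1 wildtype and 0.178% to 0.200% in the group 1 mutant. In group 2 they took 0.410% to 0.561% in wildtype, 0.324% to 0.369% in the mutant and 0.306% to 0.355% in the low-yield mutant. The mutant libraries lay below the wildtype libraries of their group in this share, without overlap. No level in group 1 is set against one in group 2, since polyA RNA and total RNA were sequenced.

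Against wildtype, 7 of the 8 members fell in the group 1 mutant, 4 in the group 2 mutant and 5 in the group 2 low-yield mutant, and no member rose. A gene is said to have risen or fallen where edgeR's quasi-likelihood F test gave an adjusted p under 0.05 (Benjamini-Hochberg, over all genes tested). Of all genes tested 6.78% fell and 5.79% rose in group 1, 2.95% fell and 3.32% rose in the group 2 mutant, and 5.86% fell and 6.68% rose in the low-yield mutant. At an unadjusted p under 0.05 there were 7, 6 and 8 members, all lower, where 27.4%, 20.4% and 26.5% of all genes passed. With the replicate number as a block in group 1, 2863 genes in place of 1766 were called. The members' count stayed at 7. Whether the replicate numbers mark pairs is not settled. The fitted log2 fold change was below 0 for all 8 members in each of the 3 comparisons, with medians of -0.54, -0.50 and -0.62, where the median over all genes was 0.01, -0.01 and -0.00. The sizes were spread widely, from -0.12 for Ank1 to -2.07 for Slc4a1 in group 1, from -0.16 to -1.96 for the same genes in the group 2 mutant, and from -0.24 to -2.31 in the low-yield mutant. The 2 comparisons within group 2 share their wildtype libraries. In bulk libraries such as these, fewer cells of a type and less RNA per cell cannot be told apart.

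**Figure D1:**
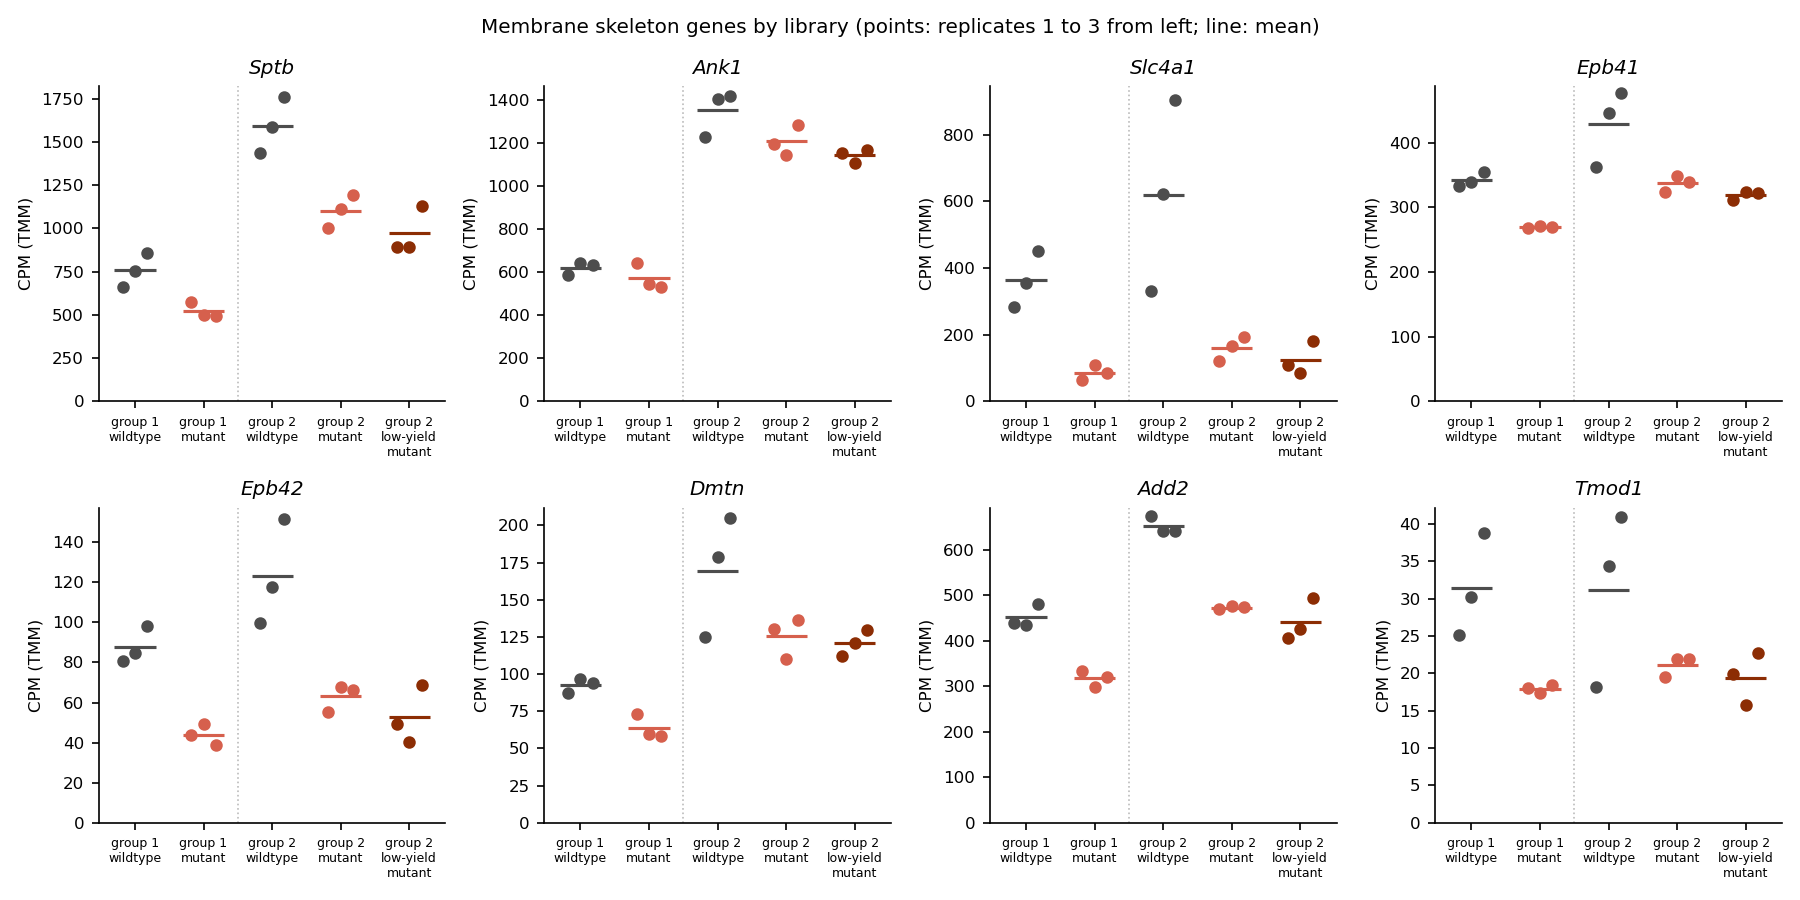
Level of each of the 8 members in each of the 15 libraries, in CPM on axes that start at 0; points are replicates 1 to 3 from left to right, lines are group means, and a dotted line parts group 1 from group 2, whose levels are not compared. Slc4a1 drops most, Ank1 overlaps between wildtype and mutant, and the first wildtype replicate of group 2 lies low for Slc4a1, Dmtn and Tmod1.

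The promoters of 5 members are in the RefSeq promoter table for GRCm38.p6 (7 windows of 300 bases, 3 of them for Epb41), and the 4 members with a single window are shown, to set the letters before their starts side by side. Each line gives the 250 bases before the RefSeq start, read towards the gene: Sptb at chr12:76710548-76710797 (minus strand), Epb42 at chr2:121036878-121037127 (minus strand), Add2 at chr6:86028431-86028680 (plus strand) and Tmod1 at chr4:46038972-46039221 (plus strand). The GENCODE annotation used for the gene coordinates starts 2 of these genes further upstream. By it the Tmod1 line lies inside the gene, which begins at 46038935. The Epb42 line lies partly inside its gene, which reaches to 121037072. Capitals mark matches, on either strand, to the motif letters AGATAA (known to be bound by GATA1), CCNCNCCC (by the erythroid Kruppel-like factor), TGANTCA (by the factor NF-E2) and CAGNTG (an E box, bound by basic helix-loop-helix factors).
Sptb: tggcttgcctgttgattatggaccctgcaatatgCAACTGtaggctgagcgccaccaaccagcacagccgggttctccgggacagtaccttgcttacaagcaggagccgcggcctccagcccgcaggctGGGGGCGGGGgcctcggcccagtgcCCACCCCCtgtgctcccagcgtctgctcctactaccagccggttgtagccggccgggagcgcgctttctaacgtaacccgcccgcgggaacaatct
Epb42: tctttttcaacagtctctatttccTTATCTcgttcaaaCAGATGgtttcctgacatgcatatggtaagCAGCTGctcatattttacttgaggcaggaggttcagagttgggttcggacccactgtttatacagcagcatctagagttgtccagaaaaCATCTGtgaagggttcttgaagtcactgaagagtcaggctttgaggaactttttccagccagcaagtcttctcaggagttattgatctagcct
Add2: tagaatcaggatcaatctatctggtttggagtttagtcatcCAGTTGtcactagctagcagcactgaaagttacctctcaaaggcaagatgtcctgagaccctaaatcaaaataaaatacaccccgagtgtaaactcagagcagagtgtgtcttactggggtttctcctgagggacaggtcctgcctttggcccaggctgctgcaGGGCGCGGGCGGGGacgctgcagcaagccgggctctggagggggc
Tmod1: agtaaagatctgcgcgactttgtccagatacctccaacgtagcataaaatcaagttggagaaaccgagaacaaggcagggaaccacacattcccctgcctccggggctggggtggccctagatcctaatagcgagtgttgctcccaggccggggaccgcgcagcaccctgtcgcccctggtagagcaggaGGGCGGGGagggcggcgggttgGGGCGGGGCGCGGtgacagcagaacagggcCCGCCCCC
The window of Epb42 held 1 AGATAA on the opposite strand, 226 bases before the RefSeq start, and 3 CAGNTG. That of Sptb held 3 CCNCNCCC and 1 CAGNTG, that of Add2 held 2 CCNCNCCC and 1 CAGNTG, and that of Tmod1 held 4 CCNCNCCC. Neighbouring CCNCNCCC matches overlap each other in the windows of Sptb, Add2 and Tmod1, and no match overlaps one of another motif in these 4. The 3 Epb41 windows held 3, 0 and 6 CCNCNCCC and 3, 1 and 0 CAGNTG. None of the 7 windows held TGANTCA. Of 32851 windows of the same length over all genes, 11.2% held AGATAA, 49.5% CCNCNCCC, 7.81% TGANTCA and 51.4% CAGNTG. These matches are a description of letters and show no binding.

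Slc4a1 encodes band 3, the chloride and bicarbonate exchanger that is the main membrane protein of the red cell and the anchor of the ankyrin complex (ENSMUSG00000006574, chromosome 11, 102348824 to 102366203, minus strand, GRCm38; no annotated gene overlaps it). It had the largest fold of the 8 in each comparison with wildtype. In group 1 its level was 284, 354 and 451 CPM in wildtype (363 ± 84.3, SD, n = 3) and 64.4, 109 and 84.8 CPM in the mutant (86.2 ± 22.5). Every mutant library was below every wildtype library, and the highest mutant value was under the lowest wildtype value by more than the whole mutant range. The fitted level in the mutant was 23.7% of wildtype (log2 fold change -2.07, SE 0.29, 95% interval -2.83 to -1.31, adjusted p 0.0173), the 53rd lowest of 14048 tested genes. This call rests on few libraries: without wildtype replicate 2 the adjusted p was 0.069 and without mutant replicate 3 it was 0.0806, at log2 fold changes of -2.09 and -2.06.

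In group 2 Slc4a1 was the least even member among the wildtype libraries, at 331, 623 and 905 CPM (619 ± 287, n = 3), a span of 2.74 times from replicate 1 to replicate 3. The mutant libraries had 120.2, 165 and 191 CPM (159 ± 36.0) and the low-yield libraries 108, 84.8 and 181 CPM (125 ± 50.3). All 6 mutant libraries lay below all 3 wildtype ones. The log2 fold change of -1.96 in the mutant missed the threshold (SE 0.46, interval -3.08 to -0.85, adjusted p 0.0645), and that of -2.31 in the low-yield mutant passed it (SE 0.47, interval -3.44 to -1.18, adjusted p 0.0256). Without wildtype replicate 1, the library low in haemoglobin, the mutant also passed (-2.26, adjusted p 0.0318), as it did by DESeq2 (0.00038) and by voom with quality weights (0.0208). The low-yield call was lost without wildtype replicate 2 (0.0748) or 3 (0.0669), without low-yield replicate 1 (0.113) or 2 (0.101), and in a fit to the 6 compared libraries alone (0.07).

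Ank1 encodes ankyrin-1, the adaptor that joins band 3 to beta spectrin (ENSMUSG00000031543, chromosome 8, 22974844 to 23150497, plus strand; it overlaps small noncoding genes, among them Mir486). It was the member that did not pass in any comparison. In group 1 it was at 586, 644 and 635 CPM in wildtype and 641, 547 and 531 CPM in the mutant. The groups overlapped through mutant replicate 1, which lay above wildtype replicates 1 and 3. The log2 fold change was -0.12 (SE 0.08, interval -0.29 to 0.05, adjusted p 0.365). In group 2 wildtype had 1231, 1408 and 1422 CPM, the mutant 1196, 1146 and 1283 CPM, and the low-yield mutant 1155, 1109 and 1168 CPM. The low-yield libraries were all below wildtype, and the mutant overlapped it. The log2 fold changes were -0.16 (SE 0.08, interval -0.33 to 0.01, adjusted p 0.266) and -0.24 (SE 0.08, interval -0.41 to -0.07, adjusted p 0.0597). The second passed without wildtype replicate 1 (-0.30, adjusted p 0.0184) or mutant replicate 2 (0.0467), by DESeq2 (0.0217) and by voom (0.00465). The intervals allow a fall of up to 0.29 in group 1, 0.33 in the mutant and 0.41 in low-yield libraries on the log2 scale, so an unchanged level is not shown.

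Epb42 encodes protein 4.2, a transglutaminase relative without enzyme activity that binds band 3 and ankyrin (ENSMUSG00000023216, chromosome 2, 121017891 to 121037072, minus strand; no annotated gene overlaps it). In group 1 it was at 80.9, 84.6 and 98.4 CPM in wildtype (87.9 ± 9.23) and 43.6, 49.5 and 38.7 CPM in the mutant (43.9 ± 5.43). The group 2 wildtype libraries had 99.8, 118 and 152 CPM (123 ± 26.4), the mutant 55.4, 67.7 and 66.4 CPM (63.2 ± 6.76) and the low-yield mutant 49.2, 40.2 and 68.6 CPM (52.7 ± 14.5). No mutant library reached a wildtype library of its group. Epb42 fell in all 3 comparisons, to 49.9% of wildtype in group 1 (log2 fold change -1.0, SE 0.10, adjusted p 0.000242), to 51.3% in the group 2 mutant (-0.96, SE 0.21, adjusted p 0.0266) and to 42.9% in low-yield libraries (-1.22, SE 0.21, adjusted p 0.00556). Its call in the group 2 mutant did not hold without wildtype replicate 2 (0.0754) or 3 (0.0643), without mutant replicate 1 (0.125), 2 (0.0731) or 3 (0.0872), and with no filter on low counts (0.0731).

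Sptb encodes the beta chain of erythroid spectrin, which carries the binding sites for ankyrin and for the actin junction (ENSMUSG00000021061, chromosome 12, 76580488 to 76710547, minus strand; Plekhg3 overlaps it on the opposite strand). Its wildtype libraries in group 1 had 663, 753 and 856 CPM (757 ± 96.8) and the mutant ones 571, 498 and 496 CPM (522 ± 43.0). Group 2 libraries had 1437, 1585 and 1761 CPM in wildtype (1594 ± 162), 1001, 1113 and 1196 CPM in the mutant (1104 ± 97.8) and 891, 892 and 1129.6 CPM in the low-yield mutant (971 ± 138). Wildtype and mutant libraries did not overlap in either group. Sptb fell to 68.9% of wildtype in group 1 (-0.54, SE 0.10, adjusted p 0.00589), to 69.2% in the group 2 mutant (-0.53, SE 0.11, adjusted p 0.00891) and to 60.9% in low-yield libraries (-0.72, SE 0.11, adjusted p 0.00067). Mutant replicate 1 of group 2 was the library whose removal ended a call of Sptb, that in the group 2 mutant (-0.46, adjusted p 0.0531).

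Add2 encodes beta adducin, which caps the fast-growing end of the junctional actin filament and recruits spectrin to it (ENSMUSG00000030000, chromosome 6, 86028681 to 86124409, plus strand; 2 noncoding annotations overlap it). Replicates lay close together, with a coefficient of variation of at most 10.5% in any group. Wildtype libraries of group 1 had 439, 434 and 480.0 CPM (451 ± 25.2) and mutant ones 332, 299 and 321 CPM (318 ± 17.0). Group 2 libraries had 674, 641 and 641 CPM in wildtype (652 ± 18.8), 469, 476 and 474 CPM in the mutant (473 ± 3.82) and 406, 426 and 494 CPM in the low-yield mutant (442 ± 46.4). The wildtype libraries lay above all mutant libraries of their group, while both mutant classes of group 2 overlapped. Add2 fell by 0.51 in group 1 (SE 0.07, adjusted p 0.000674), by 0.46 in the group 2 mutant (SE 0.08, adjusted p 0.00391) and by 0.56 in low-yield libraries (SE 0.08, adjusted p 0.000525) on the log2 scale. It kept these 3 calls in every alternative that was run, and in group 2 wildtype replicate 1 it was not low but highest.

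Epb41 encodes protein 4.1, which locks spectrin to actin and to membrane proteins (ENSMUSG00000028906, chromosome 4, 131923413 to 132075321, minus strand; small or predicted genes overlap it on both strands). In group 1 it was at 332, 339 and 354 CPM in wildtype (342 ± 11.0) and 267, 271 and 269 CPM in the mutant (269 ± 1.96). The group 2 wildtype libraries had 363, 445 and 477 CPM (428 ± 58.9), the mutant 323, 348 and 339 CPM (337 ± 12.9) and the low-yield mutant 312, 324 and 321 CPM (319 ± 6.47). No mutant library reached the wildtype libraries of its group, although wildtype replicate 1 of group 2 came close to the mutant, and both mutant classes overlapped each other. Epb41 fell by 0.34 in group 1 (SE 0.06, adjusted p 0.00241), by 0.35 in the group 2 mutant (SE 0.09, adjusted p 0.0361) and by 0.43 in low-yield libraries (SE 0.09, adjusted p 0.00704). The call in the group 2 mutant was lost in 9 of 18 alternatives. These were wildtype replicate 2 (0.136) or 3 (0.15), mutant replicate 1 (0.154), 2 (0.0537) or 3 (0.114) or low-yield replicate 1 (0.059) or 2 (0.0537) left out, library totals in place of TMM (0.0691), and a fit to the 6 compared libraries (0.0722).

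Dmtn encodes dematin, an actin-bundling protein of the junctional complex (ENSMUSG00000022099, chromosome 14, 70601263 to 70636048, minus strand; no annotated gene overlaps it). In group 1 its level was 87.1, 97.0 and 94.0 CPM in wildtype (92.7 ± 5.08) and 72.9, 59.5 and 58.4 CPM in the mutant (63.6 ± 8.05), without overlap. It fell by 0.54 on the log2 scale (SE 0.09, adjusted p 0.00262). The group 2 wildtype libraries had 125, 178 and 205 CPM, the mutant 130.1, 110.5 and 136 CPM and the low-yield mutant 112, 121 and 129.8 CPM. Wildtype replicate 1 lay among the mutant libraries, whereas replicates 2 and 3 lay above all of them. The log2 fold changes of -0.43 and -0.49 did not pass (SE 0.15 and 0.15, adjusted p 0.125 and 0.0573). Without wildtype replicate 1 both passed, at -0.60 (adjusted p 0.00245) and -0.66 (adjusted p 0.000601), and both passed by DESeq2 (0.0439 and 0.0106) and by voom (0.0208 and 0.00194).

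Tmod1 encodes tropomodulin-1, which caps the slow-growing end of the junctional actin filament (ENSMUSG00000028328, chromosome 4, 46038935 to 46116032, plus strand; Tstd2 overlaps it on the opposite strand). Its counts ranged from 518 to 2266 per library. In group 1 it was at 25.1, 30.3 and 38.8 CPM in wildtype (31.4 ± 6.93) and 18.003, 17.4 and 18.5 CPM in the mutant (17.9 ± 0.556), without overlap. It fell to 57.0% of wildtype (-0.81, SE 0.14, adjusted p 0.00545). In group 2 wildtype replicate 1, at 18.1 CPM, was below all 3 mutant libraries (19.6, 21.9 and 21.97 CPM) and below 2 of the 3 low-yield ones (19.9, 15.8 and 22.7 CPM), while replicates 2 and 3 had 34.4 and 41.0 CPM. The log2 fold changes were -0.57 in the mutant (SE 0.26, interval -1.14 to 0.01, adjusted p 0.252) and -0.68 in low-yield libraries (SE 0.26, interval -1.26 to -0.11, adjusted p 0.118). Without that replicate they were -0.83 (adjusted p 0.00233) and -0.95 (adjusted p 0.000433), and by voom the adjusted p was 0.0439 and 0.0108. DESeq2 called the low-yield comparison (0.0236).

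**Figure D2:**
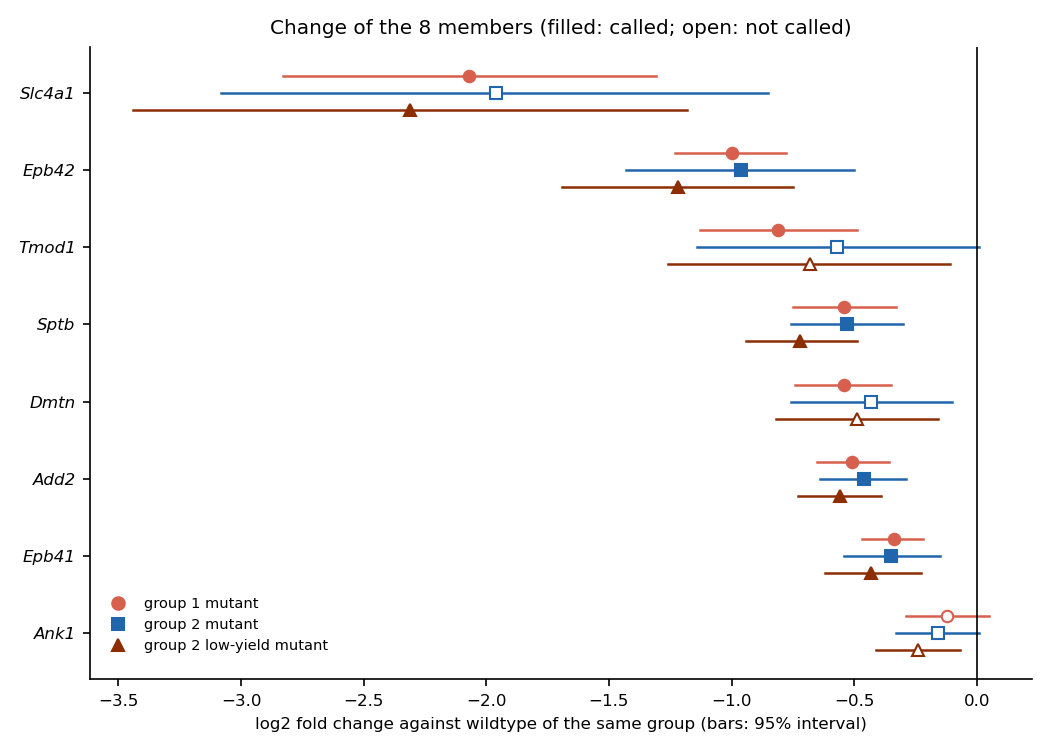
Log2 fold change of the 8 members against wildtype of the same group of mice, with 95% intervals; circles are the group 1 mutant, squares the group 2 mutant and triangles the group 2 low-yield mutant, and filled symbols passed the adjusted threshold. All 24 values are below 0, Slc4a1 has the widest intervals, and Ank1 lies closest to 0 with no filled symbol.

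Group 2 wildtype replicate 1 thus decided several counts. Without it 7 of the 8 members fell in the mutant and 8 of 8 in the low-yield mutant, in place of 4 and 5. The share of all genes called lower rose as well, from 2.95% to 3.53% and from 5.86% to 6.82%. Most members, Add2 excepted, were lowest there among the wildtype libraries. Leaving it out thus widens their fall by itself, and the higher counts are no added support. Leaving out any other library of group 2 gave 1 to 4 members in the mutant and 4 to 6 in low-yield libraries, where 1.1% to 2.96% and 2.45% to 5.99% of all genes were called lower, with 1 member, Add2, left in the mutant without mutant replicate 1. In group 1 the count was 6 without wildtype replicate 2 or mutant replicate 3, where Slc4a1 dropped out and 3.17% and 2.65% of all genes were called lower, and 7 without any other library (3.71% to 6.07%). By non-overlap of the CPM values alone, 7 members lay lower in the group 1 mutant, 5 in the group 2 mutant and 6 in the low-yield mutant, where 16.6%, 11.8% and 14.6% of all tested genes did. No member lay higher without overlap, where 15%, 11.5% and 15.3% of genes did.

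With both groups of mice in 1 fit and the group as a block, 7 members fell, Ank1 again excepted, where 9.8% of 15954 genes fell and 9.8% rose. All 8 were below 0 at an unadjusted p under 0.05, as were 31.7% of genes in either direction. The log2 fold changes were -2.02 for Slc4a1 (SE 0.26, adjusted p 0.000523), -0.98 for Epb42 (SE 0.09, adjusted p 2.04e-06), -0.69 for Tmod1 (SE 0.17, adjusted p 0.0119), -0.53 for Sptb (SE 0.07, adjusted p 1.97e-05), -0.48 for Dmtn (SE 0.11, adjusted p 0.00621) and for Add2 (SE 0.05, adjusted p 1.1e-06), and -0.35 for Epb41 (SE 0.06, adjusted p 0.000273). For Ank1 the value was -0.14 (SE 0.06, interval -0.27 to -0.01, adjusted p 0.124). Ank1 passed without mutant replicate 1 of group 1 (adjusted p 0.026), without wildtype replicate 1 of group 2 (0.037) and by voom (0.0374). The calls of the other 7 held in all 20 alternatives of this fit. The groups of mice share no library, and 4 members, Sptb, Epb41, Epb42 and Add2, fell in the mutant of both, where 2.5% of 13370 genes tested in both did. No member rose in both, where 2.37% of genes did.

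The difference between the groups of mice in the effect of genotype was tested as an interaction. No member passed (0 of 8), where 0.0188% of all genes did, 3 of 15954 by edgeR's test and 13 by DESeq2. The estimates lay between -0.03 for Ank1 and 0.25 for Tmod1. No member had an unadjusted p under 0.05, where 342 genes or 2.14% did. The intervals ran from -0.16 to 0.27 for Add2, from -1.08 to 1.33 for Slc4a1 and from -0.50 to 1.00 for Tmod1. The data thus bound a difference between the groups closely for Add2 and loosely for Slc4a1 and Tmod1.

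The low-yield libraries were also set against the other mutant libraries of group 2. No member passed (0 of 8), where 0% of 15024 genes did by edgeR's test, 6 genes by DESeq2 and 0 by voom. None had an unadjusted p under 0.05, where 480 genes or 3.19% did. All 8 estimates were below 0, from -0.06 for Dmtn to -0.35 for Slc4a1, with a median of -0.11 against 0.00 over all genes. The libraries of both classes overlapped for each of the 8 members, where 4.15% of genes lay lower and 4.07% higher without overlap. The widest interval was that of Slc4a1, from -1.44 to 0.75, and those of Ank1 and Add2 ran from -0.25 to 0.09 and from -0.27 to 0.08. Low-yield replicate 3 was the highest of its class for 7 of the members, Epb41 excepted, and had 1129.6 CPM of Sptb against 891 and 892 in its fellow replicates.

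The level of a member relative to the others was read per length, as CPM per kilobase of exon (CPM/kb), since a longer transcript yields more counts. In group 1 wildtype the order of the mean was Slc4a1 (74.2 ± 17.2 CPM/kb, SD, n = 3), Sptb (62.3 ± 7.97), Ank1 (45.9 ± 2.32), Add2 (44.5 ± 2.48), Epb41 (21.4 ± 0.690), Epb42 (16.2 ± 1.704), Dmtn (9.46 ± 0.519) and Tmod1 (7.96 ± 1.76). The ranges of Slc4a1 and Sptb overlapped, though Slc4a1 was above Sptb within each of the 3 libraries. Ank1 was above Add2 in 2 of 3 libraries, as was Dmtn above Tmod1, so the order within these pairs is not resolved. In group 2 wildtype Sptb (131 ± 13.3 CPM/kb) and Slc4a1 (127 ± 58.7) led with overlap, followed by Ank1 (100.1 ± 7.88), which Slc4a1 also overlapped, Add2 (64.3 ± 1.85) and Epb41 (26.9 ± 3.70). Below them came Epb42 (22.7 ± 4.87), Dmtn (17.3 ± 4.14) and Tmod1 (7.89 ± 2.98), of which Epb42 overlapped Epb41 and Dmtn.

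In the mutants the order of levels per length changed at the top. The mean of Slc4a1 came to 17.6 ± 4.60, 32.5 ± 7.36 and 25.5 ± 10.3 CPM/kb in the group 1, group 2 and low-yield mutants, with overlap with Epb41 in the group 1 and low-yield mutants. It lay below Sptb, Ank1 and Add2 without overlap with Add2, the lowest of those 3 (31.3 ± 1.67, 46.6 ± 0.376 and 43.6 ± 4.57 CPM/kb). Sptb and Ank1 had 42.9 ± 3.54 and 42.4 ± 4.42 CPM/kb in the group 1 mutant, 90.9 ± 8.05 and 89.3 ± 5.15 in the group 2 mutant and 79.9 ± 11.3 and 84.6 ± 2.28 in the low-yield mutant, with overlap in each. The mean of Tmod1 was the lowest in all 5 groups, though its range overlapped that of Dmtn in group 1 wildtype. These levels and ranks depend on the length used. With the longest transcript in place of all exons, 19 of 40 ranks moved, though Tmod1 stayed last by its mean. The mean of Slc4a1 was then below that of Epb41 in the mutants (19.0 against 32.4, 34.9 against 40.6 and 27.4 against 38.4 CPM/kb). Ank1 then lay above Sptb without overlap in the mutants: 63.4 to 76.7 against 47.7 to 55.0 CPM/kb in group 1, 137 to 153 against 96.3 to 115 in the group 2 mutant, and 133 to 140 against 85.7 to 109 in the low-yield mutant.

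**Figure D3:**
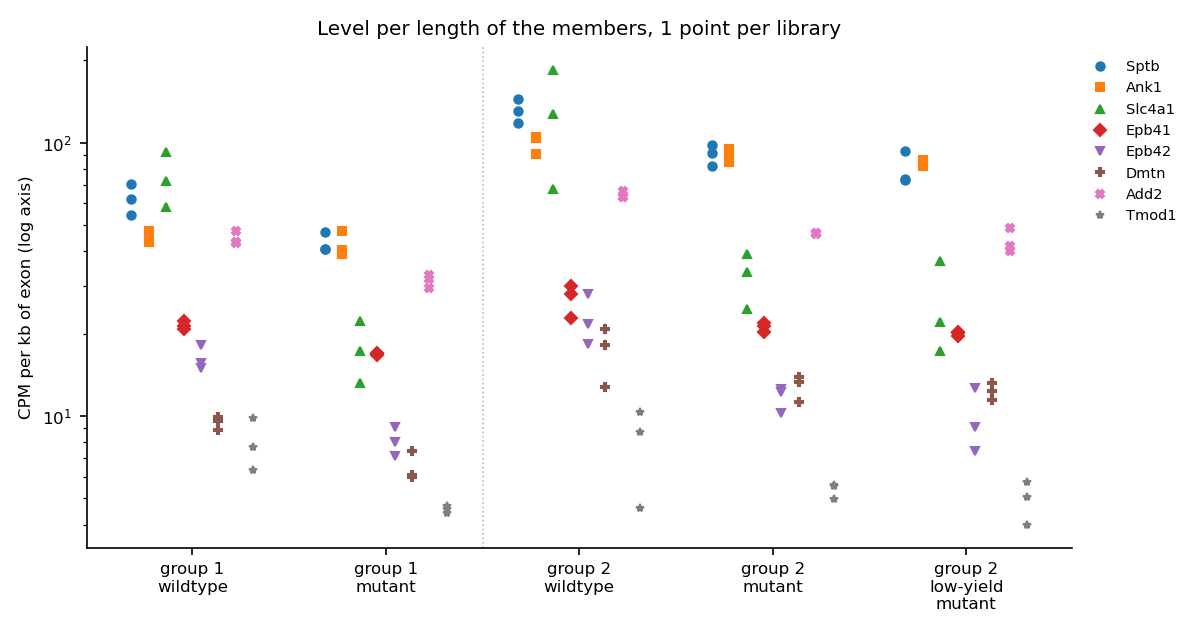
Level per length of the 8 members, in CPM per kilobase of exon on a log axis, with 1 point per library in each of the 5 groups; levels left and right of the dotted line are not compared. Slc4a1 stands among the leading 3 members in wildtype and below Sptb, Ank1 and Add2 in the mutants, and Tmod1 has the lowest mean in each group, with overlap with Dmtn in group 1 wildtype.

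The members also differed in how close their centred levels lay to each other over the 15 libraries. As a measure, log2 CPM was centred within each group of mice and the root mean square difference between a pair of genes was taken. It grows with the size of a gene's changes, so it does not tell whether a pair rises and falls together. The closest pair was Sptb and Add2 (0.111 log2 units), followed by Ank1 and Epb41 (0.126) and by Epb41 and Add2 (0.131). The farthest was Ank1 and Slc4a1 (1.00), and each of the 7 pairs with Slc4a1 differed by at least 0.549. Slc4a1 also had the widest centred range, 2.81 log2 units in group 1 and 3.41 in group 2. Ank1 had the narrowest (0.279 and 0.358). Outside the 8, the genes nearest to the members' mean pattern among 8609 candidates were Dhrs11 (0.0895), Brpf3 (0.0899), Abcb10 (0.0951), Fech (0.0982), Phlpp2 (0.0995) and Tmem184a (0.0998). Fech encodes ferrochelatase, which inserts iron into heme, and Abcb10 a transporter of the inner mitochondrial membrane. Sptb itself was at 0.107 from that mean and Slc4a1 at 0.706. Of these 6, all fell in group 1 (by 0.53 to 0.88) and against wildtype in low-yield libraries (by 0.72 to 0.87), and 5 fell in the group 2 mutant (by 0.56 to 0.75). Tmem184a was the exception there (-0.46, adjusted p 0.144), though it passed without wildtype replicate 1 (-0.64, adjusted p 0.00756) and by voom (adjusted p 0.0198). Its call in the low-yield mutant was lost without low-yield replicate 1 or 2 (adjusted p 0.0771 and 0.0846) and without wildtype replicate 2 or 3 (0.0707 each). Brpf3 lost its call in the group 2 mutant without mutant replicate 1 (adjusted p 0.0628) and without wildtype replicate 2 or 3 (0.0569 and 0.0544). So did Phlpp2 (adjusted p 0.0758, 0.0688 and 0.0617). They were chosen for this likeness, so these values describe them and test nothing.

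The other subunits and partners of the net were read from a list of 22 genes, of which 21 were tested (Bcam was not). Of the 21, 4 rose and 11 fell in group 1, where 5.79% of all genes rose and 6.78% fell. The group 2 mutant had 2 higher and 6 lower (all genes 3.32% and 2.95%). The low-yield mutant had 2 higher and 9 lower (6.68% and 5.86%), and the fit over both groups of mice 4 higher and 11 lower (9.8% each). The medians of the 21 were -0.27, -0.23, -0.31 and -0.23, against a median over all genes between -0.01 and 0.01. Of the 21, Add1, Stom, Kel, Aqp1, Slc2a1 and Tmcc2 fell in the mutant of both groups of mice, and Add3 and Actg1 rose. Of all genes tested in both, 2.5% fell and 2.37% rose in both.

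Adducin works as a dimer or tetramer of an alpha chain, from Add1, with a beta chain, from Add2, or a gamma chain, from Add3. Add1 fell alongside Add2, from 359 ± 1.96 to 265 ± 16.6 CPM in group 1 (-0.44, SE 0.06, adjusted p 0.00111) and from 422 ± 7.40 CPM to 299.7 ± 10.9 in the group 2 mutant (-0.49, SE 0.08, adjusted p 0.00265) and 299.5 ± 29.8 in low-yield libraries (-0.49, SE 0.08, adjusted p 0.00114). Add3 went the other way. It was at 67.5, 73.5 and 69.9 CPM in group 1 wildtype and 94.6, 93.7 and 91.5 CPM in the mutant, and at 54.7 to 58.0 CPM in group 2 wildtype, 69.7 to 83.2 CPM in the mutant and 72.1 to 90.6 CPM in low-yield libraries, with no overlap between wildtype and either mutant class. It rose by 0.41 (SE 0.06, adjusted p 0.00196), 0.39 (SE 0.10, adjusted p 0.0339) and 0.54 (SE 0.10, adjusted p 0.00281). In the group 2 mutant this call was lost without wildtype replicate 2 (0.131) or 3 (0.0749), mutant replicate 1 (0.16) or 3 (0.0667) or low-yield replicate 1 (0.0536). The ratio of Add2 to Add3 per length, described after its values were seen, was 3.72 to 4.32 in group 1 wildtype and 2.01 to 2.21 in the mutant, and 6.95 to 7.40, 3.54 to 4.29 and 2.96 to 4.31 in group 2 wildtype, mutant and low-yield mutant. That of Add2 to Add1 overlapped between wildtype and mutant in group 1 (1.016 to 1.128 and 0.892 to 1.082). It also did in group 2 (1.262 to 1.347 and 1.288 to 1.375), where low-yield libraries had 1.241 to 1.253.

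Actin itself, which the junctional complex holds as short filaments, did not fall. Actg1, cytoplasmic gamma actin, rose by 0.61 in group 1 (SE 0.14, adjusted p 0.0337), by 0.50 in the group 2 mutant (SE 0.12, adjusted p 0.0223) and by 0.56 in low-yield libraries (SE 0.12, adjusted p 0.00661). Its level was 525 to 646 CPM in group 1 wildtype and 786 to 1078 CPM in the mutant. The group 1 call was lost without wildtype replicate 1 (0.0624) or 2 (0.0988), mutant replicate 2 (0.0559) or the low-count filter (0.0944). The group 2 mutant call was lost without wildtype replicate 2 (0.0714) or 3 (0.0944) or mutant replicate 1 (0.0903) or 3 (0.076). Actin genes have near-identical copies and pseudogenes among which reads can be split. Actb and Tpm3, a tropomyosin, named here after their values were seen, were the other 2 that rose in group 1 (by 0.31 and 0.33, adjusted p 0.0124 and 0.00653).

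In the same list of 22 genes, 5 that encode membrane proteins fell in the mutant of both groups of mice, where 2.5% of all genes did. The list's other genes for membrane proteins did not pass in both. The 5 include Aqp1, the water channel, Tmcc2, a transmembrane coiled-coil protein, and Kel, the Kell blood group protein. Aqp1 went from 135 ± 7.87 to 47.0 ± 3.00 CPM in group 1 (-1.52, SE 0.07, adjusted p 7.34e-07) and from 172 ± 8.61 to 80.1 ± 12.2 CPM in the group 2 mutant (-1.10, SE 0.25, adjusted p 0.0437). Tmcc2 went from 68.4 ± 13.1 to 23.9 ± 2.24 CPM in group 1 (-1.52, adjusted p 0.000543) and fell by 1.14 in the group 2 mutant (adjusted p 0.00239). Kel fell by 1.04 and 0.73 in these comparisons (adjusted p 0.00346 and 0.00457). Stom, the membrane protein stomatin, fell by 0.49 and 0.40 (adjusted p 0.000493 and 0.033), and Slc2a1, the glucose transporter that also binds dematin and adducin in red cells, by 0.60 and 0.49 (adjusted p 0.0041 and 0.047). In the group 2 mutant the calls of Aqp1 and Slc2a1 were each lost in 9 of 18 alternatives and that of Stom in 7, with adjusted p up to 0.159, 0.16 and 0.142. Wildtype replicate 2, wildtype replicate 3 and mutant replicates 1 and 3 each ended all 3 when left out. In the low-yield mutant these 5 genes fell by 1.37, 1.35, 0.94, 0.65 and 0.54 (adjusted p 0.0119, 0.000389, 0.000476, 0.000925 and 0.0181). There Aqp1 lost its call without wildtype replicate 3 (0.0522) or low-yield replicate 1 (0.0555), and Slc2a1 without wildtype replicate 2 (0.0575) or 3 (0.0761), low-yield replicate 1 (0.082) or 2 (0.0566) or with library totals only (0.0568).

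**Figure D4:**
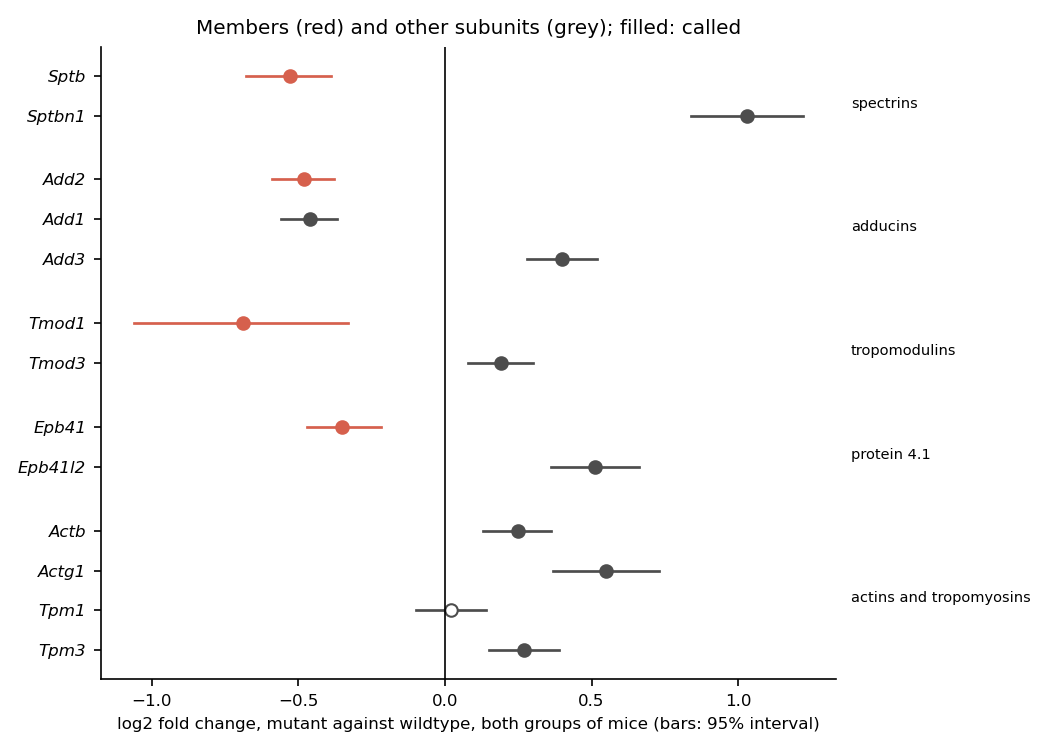
Log2 fold change of mutant against wildtype over both groups of mice with its 95% interval, for members (red) and other subunits or relatives (grey), by family; filled symbols passed the adjusted threshold. Within the spectrin, adducin, tropomodulin and protein 4.1 families the members lie below 0. Of the others shown there, Sptbn1, Add3, Tmod3 and Epb41l2 lie above 0 and Add1 lies below it. The relatives shown are a selection: of 19 tested over both groups of mice, 7 were below 0.

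Relatives of the members that are not particular to red cells were read from a list of 27 genes. Of these, 17 were tested in each group of mice and 19 over both. Of those tested 2 rose and 1 fell in group 1, where 5.79% of all genes rose and 6.78% fell. In the group 2 mutant 1 rose and 0 fell, where 3.32% and 2.95% of all genes did. The low-yield mutant had 3 higher and 1 lower, where all genes had 6.68% and 5.86%. The fit over both groups also had 3 higher and 1 lower, where all genes had 9.8% in each direction. The relatives' medians were 0.14, 0.13, 0.09 and 0.05, against a median over all genes between -0.01 and 0.01. Sptbn1, the widely expressed beta spectrin, rose in each of these comparisons (chromosome 11, 30099395 to 30268175, minus strand). It was at 24.1, 34.9 and 30.0 CPM in group 1 wildtype and 53.5, 64.0 and 62.6 CPM in the mutant. Group 2 libraries had 41.4, 30.8 and 28.4 CPM in wildtype, 70.1, 66.8 and 69.8 CPM in the mutant and 86.6, 85.3 and 63.9 CPM in the low-yield mutant, with no overlap between wildtype and either mutant class. The log2 fold changes were 1.02 (SE 0.13, adjusted p 0.00135), 1.04 (SE 0.14, adjusted p 0.000915) and 1.23 (SE 0.14, adjusted p 0.000141), and no alternative ended these calls.

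Erythroid beta spectrin nevertheless remained far more abundant per length than Sptbn1. The ratio of Sptb to Sptbn1 per length was 31.1 to 41.0 in group 1 wildtype and 11.2 to 15.4 in the mutant. In group 2 it was 49.99 to 89.1 in wildtype, 20.6 to 24.7 in the mutant and 14.8 to 25.5 in low-yield libraries. The ratios did not overlap between wildtype and mutants; they were chosen after the values were seen. The other relatives that changed, named after their values were seen, were Epb41l2, a protein 4.1 relative, Sptan1, a widely expressed nonerythroid spectrin, Slc4a7, a bicarbonate transporter, and Tgm2, a tissue transglutaminase. Epb41l2 rose by 0.64 in group 1, 0.43 in low-yield libraries and 0.51 over both groups of mice (adjusted p 0.00106, 0.0194 and 4.64e-05). Sptan1 rose by 1.60 in low-yield libraries (adjusted p 0.00172). Slc4a7 fell by 0.30 in group 1 and by 0.30 over both groups of mice (adjusted p 0.0334 and 0.00366). Tgm2 fell by 0.53 in low-yield libraries (adjusted p 0.0189).

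Tmod3, a tropomodulin of many cell types, was at 65.1, 70.5 and 70.4 CPM in group 1 wildtype and 71.6, 79.4 and 75.5 CPM in the mutant. It did not pass in group 1 (0.14, adjusted p 0.232), nor in group 2 in the mutant or low-yield mutant (0.25 and 0.22, adjusted p 0.103 and 0.112). It passed over both groups of mice (0.19, SE 0.05, interval 0.08 to 0.30, adjusted p 0.0155). The ratio of Tmod1 to Tmod3 per length was 1.09 to 1.56 in group 1 wildtype and 0.618 to 0.710 in the mutant. In group 2 it was 1.06 to 2.32 in wildtype, 0.970 to 1.08 in the mutant and 0.784 to 1.09 in low-yield libraries, where wildtype replicate 1 overlapped the mutants. The size of these ratios depends on the length used: with the longest transcript, chosen after the data were seen, that of Tmod1 to Tmod3 was 0.478 to 0.684 in group 1 wildtype and 0.271 to 0.312 in the mutant, and that of Sptb to Sptbn1 was smaller by a factor of 1.64 in every library.

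**Figure D5:**
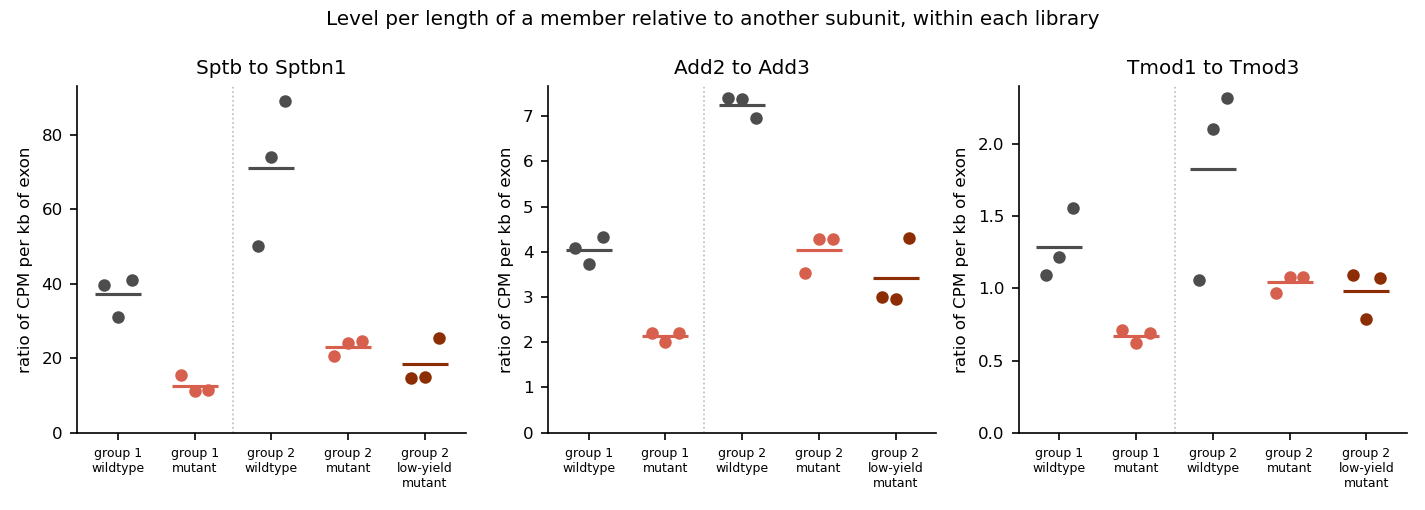
Ratio of the level per length of Sptb to Sptbn1, Add2 to Add3 and Tmod1 to Tmod3 within each library; points are replicates 1 to 3 from left, lines are group means, axes start at 0 and a dotted line parts the groups of mice. The mutant libraries lie below the wildtype libraries of their group in all panels except Tmod1 to Tmod3 in group 2, where the first wildtype replicate overlaps them.

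Markers of maturation and of other cells moved with the same comparisons, and their part in the members' values was not tested. The summed level of the 12 erythroid markers was 5640 to 8770 CPM in group 1 wildtype and 3060 to 3431 CPM in the mutant, and 7460 to 13858 CPM in group 2 wildtype, 4665 to 5558 CPM in the mutant and 3994 to 5823 CPM in low-yield libraries. Of these 12, 8 fell and 0 rose in group 1, 5 fell and 1 rose in the group 2 mutant, and 6 fell and 1 rose in the low-yield mutant. For these and the marker counts below, the shares of all genes were as follows. In group 1 6.78% fell and 5.79% rose, in the group 2 mutant 2.95% and 3.32%, and in the low-yield mutant 5.86% and 6.68%. The 10 early progenitor markers, of which 1 rose in group 1 and 3 in each mutant class of group 2, summed to 492 to 653 CPM and 556 to 709 CPM in group 1 wildtype and mutant, and to 439.8 to 596, 589 to 698 and 613 to 741 CPM in the 3 groups of group 2. The 9 granulocyte markers summed to 6.73 to 15.2 CPM in group 2 wildtype, 54.1 to 147 CPM in the mutant and 99.3 to 173 CPM in low-yield libraries, and to 78.8 to 536 and 139 to 1099 CPM in group 1 wildtype and mutant. Of these 9, 0 rose in group 1, 7 in the group 2 mutant and 9 in the low-yield mutant. The 6 endothelial markers, at low levels, summed to 2.09 to 4.38 CPM and 3.91 to 9.67 CPM in group 1 wildtype and mutant. In group 2 they summed to 0.896 to 1.90 CPM in wildtype, 3.56 to 5.87 CPM in the mutant and 6.45 to 10.01 CPM in low-yield libraries, without overlap between these groups. Of the endothelial markers tested, 0 of 3 rose in group 1, 1 of 4 in the group 2 mutant and 3 of 4 in the low-yield mutant. The 9 megakaryocyte markers summed to 25.4 to 44.7 CPM and 28.1 to 52.3 CPM in group 1 wildtype and mutant, and to 35.9 to 40.2, 33.6 to 43.0 and 53.0 to 59.9 CPM in group 2 wildtype, mutant and low-yield libraries. Of 8 tested, 0 rose and 1 fell in group 1, while of 7 tested 1 rose and 0 fell in the group 2 mutant and 4 rose and 1 fell in the low-yield mutant. The 9 macrophage markers summed to at most 11.3 CPM in any library, and 0 of the 3 tested passed in these comparisons. The 9 hepatocyte markers summed to 34.4 to 64.5 CPM in group 1 wildtype and 6.24 to 22.1 CPM in the mutant, and to 9.14 to 84.3 CPM over the 9 libraries of group 2, and 3 of the 9 fell in group 1 and 0 in either mutant class of group 2. The transcription factor Klf1 and the receptor of erythropoietin, Epor, fell in all 3 comparisons (by 0.51, 0.48 and 0.61, and by 0.40, 0.34 and 0.45), with adjusted p at most 0.023. Tfrc, the transferrin receptor, fell in group 1 (by 0.36, adjusted p 0.0146) and had -0.18 and -0.27 in group 2 (adjusted p 0.539 and 0.251). Gata1, another erythroid transcription factor, did not pass (0.14, 0.06 and 0.06, adjusted p 0.168, 0.718 and 0.657).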

How the data were processed

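The authors' deposited gene tables hold expected counts, whole as deposited, 1 column per library. Per the labels' protocols RNA was extracted with RNeasy Micro columns and sequenced as paired ends. Per the submitters' processing notes cutadapt 2.3, FastQC 0.11.8, STAR 2.7.8a, RSEM 1.3.3, MultiQC 1.7 and GRCm38 were used, with no role given. The annotation release and strand setting are not given in the sources used here, so overlapping genes can share reads.

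Reporter rows (at most 2 counts each) were left out. In R 4.3.3, edgeR 4.0.16 (filterByExpr, TMM, robust quasi-likelihood F test, Benjamini-Hochberg over all genes, 0.05) was fitted per group of mice and over both with the group as a block, after a check on simulated data. CPM were normalised within a group of mice. Kilobases are the union of exons in GENCODE M21, or the longest transcript where stated. Alternatives were DESeq2 1.42.0, limma 3.58.1 voom, other scalings and filters, single libraries left out and, added after the data were seen, edgeR's legacy mode and another gene length. Same-numbered wildtype and mutant libraries of group 1 deviated together (r 0.441, 0.186 and 0.146). Wildtype replicate 3 and mutant replicate 2 of group 1 did so too (0.23), so a pairing by number is not settled.

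Named by rule were the 8 members, Tmod3, listed genes called in the mutant of both groups of mice, and the 6 genes nearest in pattern. Rpl5, some cell markers and the genes said to be named after their values were seen were named besides. Members and lists were chosen with earlier results of these data known. Some listed genes are not reported here by name.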

Additional observations from a re-analysis of the deposited data

How the results depend on the processing

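The members' log2 fold changes against wildtype kept their sign in every alternative that was run. In group 1, 110 of 112 member values stayed on their side of the threshold and 2 lost the call. In the group 2 mutant 119 of 144 stayed on their side of the threshold, 16 lost the call and 9 gained it; in the low-yield mutant 127 of 144 stayed, 5 lost it and 12 gained it. Over both groups of mice 157 of 160 stayed and 3 gained it. The number of genes called moved more. In group 1 it was 1766, and 2863 with the replicate block. In the group 2 mutant it was 942, with 1452 by DESeq2 and 2000 by voom, where 4 members became 7 by voom. In the low-yield mutant it was 1884, with 3399 by voom, and 5 members became 8 by DESeq2 and 8 by voom. Low-yield against mutant gave 0, and 6 by DESeq2. The interaction gave 3, with 13 by DESeq2 and 5 with the replicate block. The cause was not tested.

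With 1 library left out, group 1 gave 753 to 1729 genes and 6 to 7 members. The group 2 mutant gave 425 to 1323 genes and 1 to 7 members, with 1 member without mutant replicate 1 and 7 without wildtype replicate 1. The low-yield mutant gave 900 to 2395 genes and 4 to 8 members, and low-yield against mutant 0 to 22 genes, with 22 without low-yield replicate 3. Both groups of mice gave 2526 to 3629 genes and 7 to 8 members, and the interaction 2 to 3 genes. Values near 0 changed sign. Between low-yield and mutant Dmtn ran from -0.14 to 0.01 and Tmod1 from -0.25 to 0.02. The interaction ran from -0.21 to 0.47 for Slc4a1 and from -0.04 to 0.47 for Tmod1, and 32 of 160 member values of the interaction changed sign over all alternatives.

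Same-numbered libraries of group 2 wildtype and mutant correlated at 0.241, 0.173 and 0.0245, and other same-numbered pairs of group 2 did not exceed 0.0836. Wildtype replicate 3 and mutant replicate 2 of group 2 had 0.116, so a pairing by number is not settled in group 2 either. With the replicate block there, 1309 genes and 5 members were called in the mutant and 2331 genes and 7 members in the low-yield mutant; over both groups of mice it gave 3889 genes and 7 members. It brought the calls of Slc4a1 in the mutant (adjusted p 0.0259) and of Ank1 and Dmtn in the low-yield mutant (0.0426 and 0.0181), and ended that of Aqp1 in the mutant (0.0501). The median log2 fold change of all genes stayed between -0.01 and 0.04 under the other scalings. Tmod1, at 518 to 2266 counts per library, has the least depth of the 8.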

Other observations

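Ratios between transcripts of the anchor complex differed between wildtype and mutant libraries, a description made after the values were seen; no protein was measured. Per length, the ratio of Slc4a1 to Ank1, the band 3 transcript to that of its ankyrin partner, was 1.34 to 1.97 in group 1 wildtype and 0.278 to 0.553 in the mutant. Group 2 had 0.743 to 1.76 in wildtype, 0.278 to 0.412 in the mutant and 0.211 to 0.429 in low-yield libraries. The ratio of Sptb to Ank1 was 1.26 to 1.502 in group 1 wildtype and 0.992 to 1.04 in the mutant, and 1.25 to 1.38, 0.932 to 1.08 and 0.859 to 1.08 in the 3 groups of group 2. Neither ratio overlapped between wildtype and mutants of its group of mice. Their size depends on the length used: with the longest transcript the ratio of Sptb to Ank1 was 0.911 to 1.09 in group 1 wildtype and 0.717 to 0.752 in the mutant.

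Rhd, a gene of the Rh blood group complex of the red cell surface, named after its values were seen, fell over both groups of mice. Its log2 fold change was -0.72 (adjusted p 6.73e-07), with -0.70 in group 1 (0.00029), -0.74 in the group 2 mutant (0.0713) and -0.99 in the low-yield mutant (0.0144).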
